A study of Mus musculus with 4 samples.

Results

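The interleukin 22 and interleukin 23 axis was followed in the 2 lymph nodes that drain the pancreas of NOD mice. The set comprises 9 genes of 17178 named genes on the array: Il22ra2, Il22, Il22ra1, Il10rb, Il23a, Il23r, Il12b, Ahr and Il17a. It was selected on a measured value, because Il22ra2 was among the largest increases in the gastric node, and the other genes were added for their place in the pathway. The ratio of Il22ra2 and of every other member is therefore given as a description and carries no test. Probes were matched through their transcript accession, which gave 9 probes of 7 members. No probe was matched to Il10rb or Il12b, and these are not analysed here. Of the 7 matched members, 4 passed the filter on dim probes (Il22ra2, Il22ra1, Il23r and Ahr), and Il22, Il23a and Il17a did not.

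The samples were a gastric lymph node (left pancreatic) and a pancreatico-duodenal one (right pancreatic) from each of 4 female mice aged 12 weeks of the inbred NOD strain, which develops autoimmune diabetes spontaneously. Mice carried no further treatment or engineered allele according to the labels. The RNA of both nodes of a mouse shared 1 array, the gastric node in red (Cy5) and the pancreatico-duodenal node in green (Cy3), and each ratio sets the gastric node over the other. Since no array had the dyes exchanged, dye and node cannot be told apart for any gene. These are whole nodes, so fewer cells of a type and less RNA per cell cannot be told apart either.

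Interleukin 22 is a cytokine made by group 3 innate lymphoid cells and T helper 17 cells that acts on epithelium and other non-haematopoietic cells. Its receptor pairs Il22ra1, the specific chain, with Il10rb, a chain shared with interleukin 10. Il22ra2 encodes a separate, secreted receptor, interleukin 22 binding protein, which binds the cytokine and keeps it from the membrane receptor. Dendritic cells of gut and lymphoid tissue are known to make it. Interleukin 23, a dimer of the p19 chain encoded by Il23a and the p40 chain encoded by Il12b, acts through Il23r and favours production of interleukin 22 and of interleukin 17, the product of Il17a. The aryl hydrocarbon receptor, encoded by Ahr, is a ligand-activated transcription factor that innate lymphoid cells and interleukin 22 production depend on in mice.

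Across the arrays, 67.1% to 71.4% of probes in the gastric channel and 59.6% to 62.6% in the pancreatico-duodenal channel were well above background by the scanner software's flag, and no spot was saturated. The median spot signal was 115 to 155 scanner units in the gastric channel and 87.3 to 95.9 in the other, so raw signals of the channels are compared only after normalization. The number of arrays, 4, limits the precision. All 12 T cell and all 10 B cell markers checked, which define a lymph node, passed the filter. Exocrine pancreas genes stood apart in mouse 3, where the median log2 ratio of 10 markers was -4.69, against -0.28, 0.21 and 0.85 in mice 1, 2 and 4.

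Il22ra2 had the largest difference among the members measured. Its brighter probe gave signals of 1101, 1222, 781 and 517 scanner units in the gastric nodes of mice 1 to 4, against 144, 312, 222 and 159 in their pancreatico-duodenal nodes. These are raw signals of channels that differ in overall brightness, and the probe was well above background on 4 of 4 arrays in both channels. After normalization the log2 ratios were 1.79, 1.05, 1.07 and 0.67, all above 0. Mouse 1 had the largest ratio and mouse 4 the smallest, which are 3.46-fold and 1.59-fold. The mean was 1.14 ± 0.47 (SD, n = 4), a 2.21-fold higher level in the gastric node. By size this ranked 4 of 13401 named genes in the fit. The 2992 other features within 0.5 log2 units of its brightness had a median log2 ratio of 0.04, with 5th and 95th percentiles of -0.40 and 0.34. Since this value chose the set, its rank and its place beside these features are descriptions only.

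The dimmer probe of Il22ra2 ran the same way and showed how much its ratio depends on the processing. Its signals were 136, 145, 124 and 84.0 in the gastric nodes, against 56.9, 66.9, 65.2 and 57.8 in the pancreatico-duodenal nodes. It was well above background on 4 of 4 gastric arrays but on only 2 of 4 pancreatico-duodenal ones, those of mice 2 and 3. The log2 ratios were 0.58, 0.62, 0.45 and 0.03, with a mean of 0.42 ± 0.27 (SD, n = 4). The constant of 50 added to both channels in the background correction pulls the ratio of a dim probe toward 0. With a constant of 10 the means were 0.75 for this probe and 1.28 for the brighter one. In the scanner software's own ratios the dimmer probe read 2.19, 1.32, 1.40 and 0.55 in mice 1 to 4, with a mean of 1.36 ± 0.67, and the brighter one 2.16, 1.19, 1.31 and 0.91, with a mean of 1.39 ± 0.54 (SD, n = 4). The dimmer probe's values in mice 1 and 4 rest on a pancreatico-duodenal signal not well above background and are not exact ratios.

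**Figure D1:**
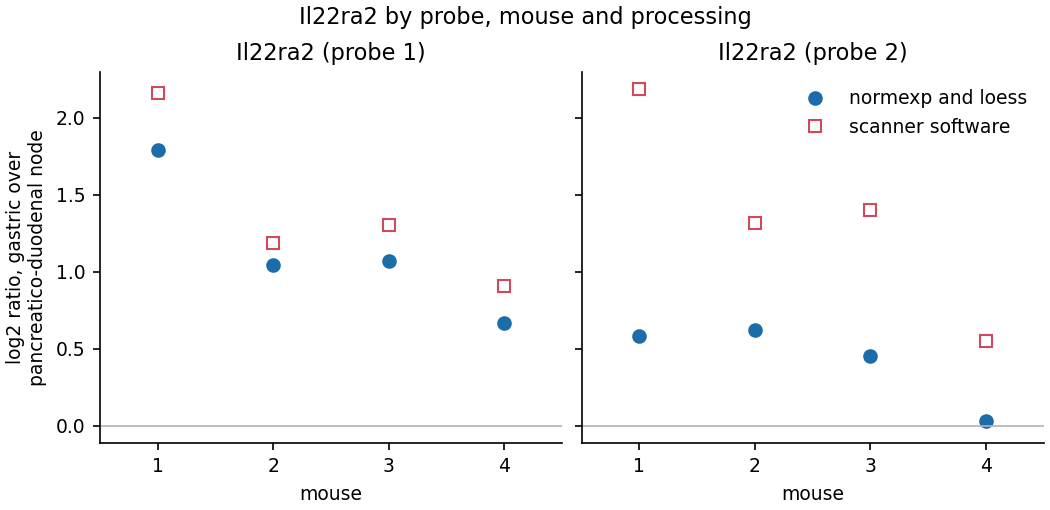
Log2 ratio of Il22ra2 (vertical axis, gastric over pancreatico-duodenal node) in each of 4 mice (horizontal axis) for its brighter probe (left, probe 1) and dimmer probe (right, probe 2). Filled circles are ratios after normexp and loess, and open squares are the scanner software's ratios; all lie above 0, and the dimmer probe moves from a mean of 0.42 to 1.36 between the processings.

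The cytokine gene itself did not stand above background in either node. Il22 had 2 probes, neither of them well above background in any of the 4 arrays in either channel. The brighter gave 54.8, 62.7, 55.6 and 49.9 scanner units in the gastric nodes and 45.7, 57.9, 53.9 and 49.1 in the pancreatico-duodenal nodes. The dimmer gave 51.6 to 58.6 in the gastric and 49.0 to 58.2 in the pancreatico-duodenal nodes. These signals bound the level from above and allow no ratio. In the gene table Il22 lies next to Iltifb, a near-identical copy, so its probes may read both genes.

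The membrane receptor chain Il22ra1 was dim in both nodes but above background on every array. Signals were 91.8, 86.2, 78.2 and 93.9 in the gastric nodes and 71.1, 68.3, 72.7 and 67.4 in the pancreatico-duodenal nodes. The log2 ratios were -0.17, -0.22, -0.17 and 0.02, with a mean of -0.14 ± 0.10 (SD, n = 4). It was slightly below 0 in 3 mice and at 0 in mouse 4. The scanner software's ratios were below 0 in all 4, at -0.50, -0.19, -0.57 and -0.31. Acinar cells of the pancreas and other epithelia are known to carry this chain. Of 8 epithelial markers 5 passed the filter and 3 (Cdh1, Cldn4 and Krt19) did not. With limma 1 was lower and none higher in the gastric node. At an unadjusted p under 0.05 the counts were 3 lower and 0 higher, beside 6536 of all 21320 features in either direction. The summed normalized signal of the epithelial markers ranged from 516 to 560 in gastric and from 592 to 1805 in pancreatico-duodenal nodes. Mouse 3 stood apart among these markers. Krt8 read -2.30 there, against -0.67 to -0.31 in the other mice, and Krt18 read -2.65, against -0.31 to -0.18. The part of epithelial content in the Il22ra1 value was not tested.

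Il23r, the specific receptor chain for interleukin 23, read lower in the gastric node of mice 3 and 4. Signals were 115, 121, 77.2 and 104 in the gastric nodes, against 80.7, 81.2, 87.4 and 94.0 in the pancreatico-duodenal nodes. The log2 ratios were -0.15, -0.01, -0.49 and -0.44. Mice 3 and 4 thus lay apart from mice 1 and 2, and the mean was -0.27 ± 0.23 (SD, n = 4). The scanner software gave -0.36, 0.15, -1.29 and -0.96, with a mean of -0.61. The ligand chain Il23a was not well above background in any channel of any array, at 51.8, 54.7, 55.4 and 52.1 in the gastric nodes and 43.9, 42.2, 45.3 and 47.7 in the pancreatico-duodenal nodes.

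Il17a, the signature cytokine gene of T helper 17 cells, was likewise not well above background anywhere. It read 57.3, 51.3, 49.7 and 49.6 in the gastric nodes and 45.1, 47.4, 45.5 and 47.7 in the pancreatico-duodenal nodes, and no ratio is given.

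Ahr was well above background on every array, and its 10 spots per array were averaged. Signals were 864, 760, 366 and 572 in the gastric nodes and 338, 454, 328 and 331 in the pancreatico-duodenal nodes. The log2 ratios were 0.26, -0.16, -0.53 and -0.28, so mouse 1 lay above 0 and the other 3 below. The mean of -0.18 ± 0.33 (SD, n = 4) was smaller than the spread between mice. With median centring in place of loess, which moved the median of all features to 0.32, it read 0.24.

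**Figure D2:**
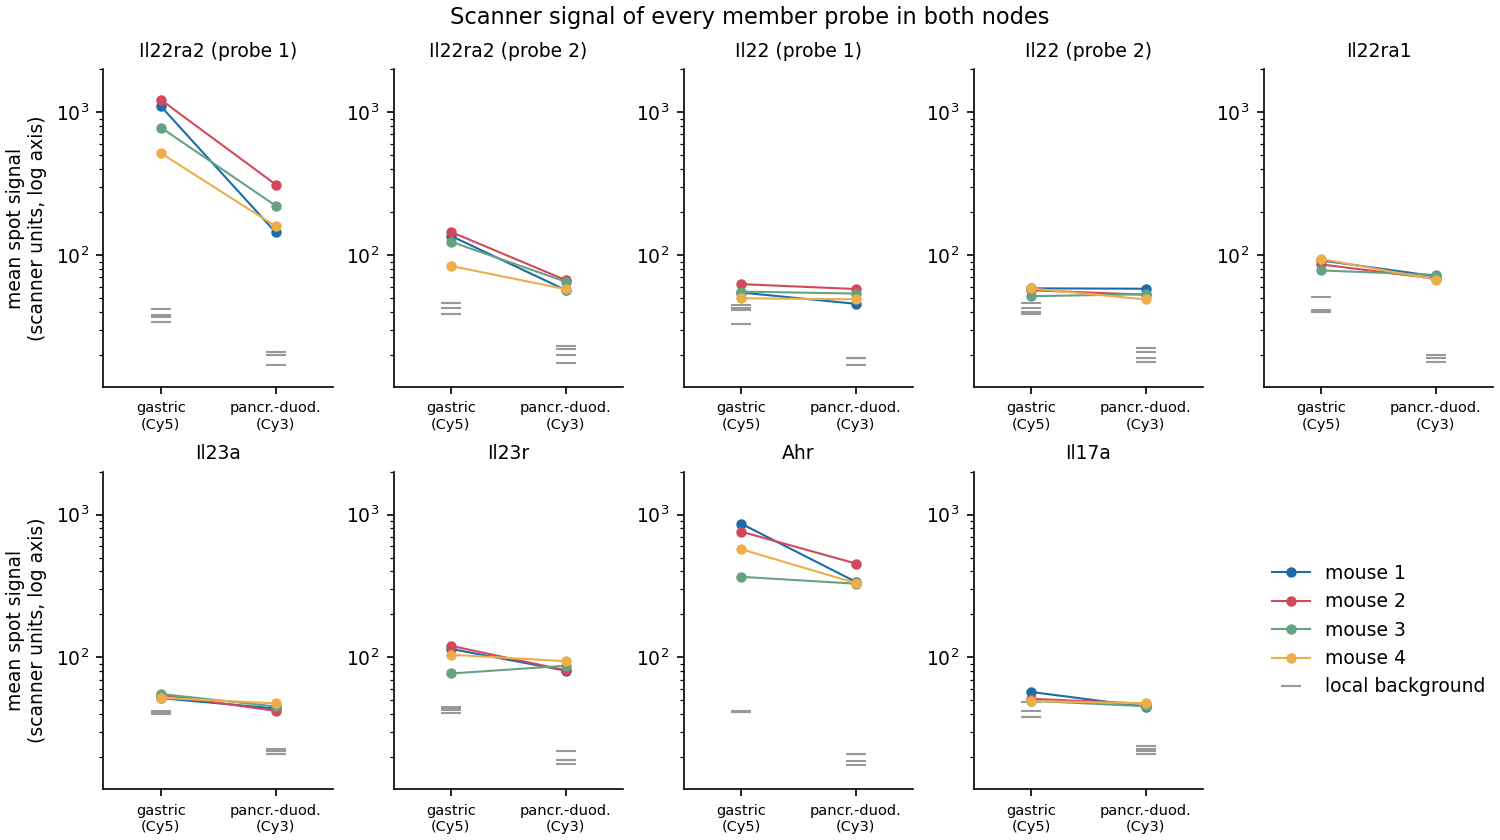
Mean spot signal (vertical log axis, scanner units) of each of the 9 member probes in the gastric (left) and pancreatico-duodenal node (right) of 4 mice, joined by mouse; grey dashes are the local background. The channels are not normalized to each other here, and the brighter Il22ra2 probe reads 517 to 1222 in gastric and 144 to 312 in pancreatico-duodenal nodes, while Il22, Il23a and Il17a are not well above background in either.

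**Figure D3:**
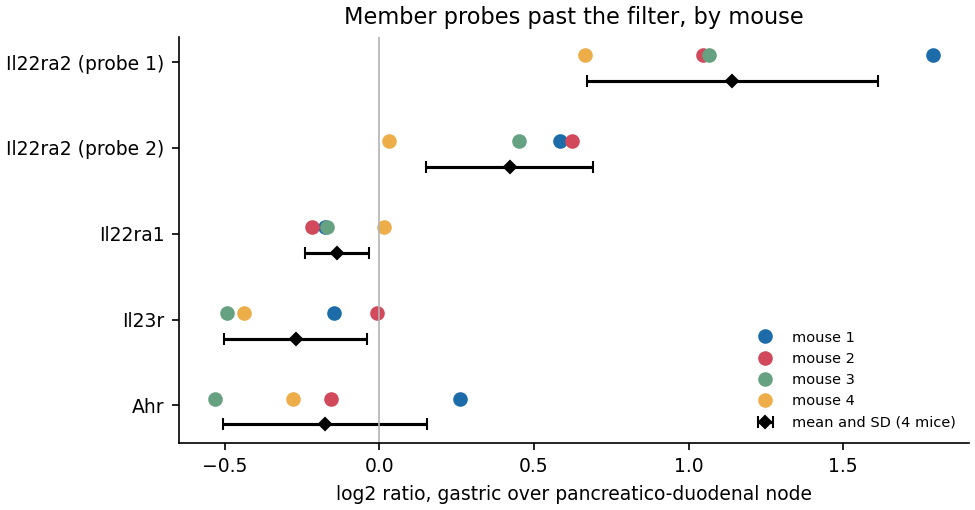
Log2 ratio (horizontal axis, gastric over pancreatico-duodenal node) in each mouse for the 5 member probes past the filter on dim probes, with the mean and SD over 4 mice below each row. The brighter Il22ra2 probe lies between 0.67 and 1.79, and Il22ra1, Il23r and Ahr have means from -0.27 to -0.14.

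Over all 21320 features limma called 3.09% higher and 4.45% lower on the gastric side (adjusted p threshold 0.05). Of the 4 members in it 1 was higher and 0 were lower (1 lower at an unadjusted p under 0.05), a count in which nothing is read since the same contrast chose the set. The median log2 ratio of all features was 0.03. At an unadjusted p under 0.05 there were 6536 of the 21320 features in either direction, the background for the unadjusted counts given here. Of the called features 41.0% were the higher ones, and 86.1% with median centring.

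The other genes of the pathway were taken from lists of 116 genes in 10 groups, of which 94 passed the filter. Among these 3 were higher (3.19%), 8 were lower (8.51%) and 83 did not pass, and their median log2 ratio was -0.05. At an unadjusted p under 0.05 there were 34 of the 94, beside 6536 of all 21320 features. Without mouse 2, mouse 3 or mouse 4, or with an intensity trend and robust variance, none of the 94 passed in limma. At an unadjusted p under 0.05 there were 33, 34, 29 and 36 of them, beside 4343, 5732, 4299 and 6704 of the 21320 features. Without mouse 1 the counts were 4 higher and 11 lower, beside 844 and 1323 of all features. With median centring 58 of the 94 were higher and 8 lower, beside 12820 higher and 2066 lower of the 21320 features. The higher count is thus near the share over all features.

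Among the ligands and receptors of the wider families few differed. None of 5 measured genes of the interleukin 10 family passed in limma (0 higher and 2 lower at an unadjusted p under 0.05). The brightest were Il10ra, the specific interleukin 10 receptor chain, at -0.15 ± 0.09, and Il20rb, a chain of the interleukin 20 and 24 receptors, at 0.09 ± 0.11 (SD, n = 4). In the interleukin 12 family 1 of 6 genes was higher and none lower. This was Il12a, the p35 chain that joins p40 to make interleukin 12, with log2 ratios of 0.35, 0.19, 0.41 and 0.23 and a mean of 0.30 ± 0.10 (SD, n = 4; limma adjusted p = 0.0413). Its call was lost with the scanner software's ratio (limma adjusted p = 0.0672). With median centring it read 0.66, which is 0.33 relative to the median of all features there.

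Of 8 genes of JAK-STAT signalling 1 was lower and none higher, with a list median of -0.02. This was Tyk2, a Janus kinase bound to Il10rb and to the interleukin 12 receptor chain shared with interleukin 23. It read -0.80, -0.64, -0.70 and -0.44, lower in 4 of 4 mice, with a mean of -0.65 ± 0.15 (SD, n = 4; limma adjusted p = 0.0228). With median centring it read -0.13 and lost the call, which is -0.45 relative to the median of all features there.

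Most measured genes that interleukin 22 induces in epithelium read below 0 on average, beside 41.9% of all features. Only Muc1 read above 0, at 0.08. Of 14 listed genes 8 passed the filter and none passed in limma (0 at an unadjusted p under 0.05 in either direction), with a median of -0.12. Bcl3, a nuclear partner of NF-kB, read -0.15 ± 0.13. S100a9, a calcium-binding protein of neutrophils as well as of stimulated epithelium, read 0.31, -4.03, -1.92 and -0.30, with mouse 2 farthest below 0. Single mice also lay far below 0 for S100a8 (-2.81 in mouse 2) and Reg3d (-3.44 in mouse 3). The antimicrobial lectin genes Reg3a, Reg3b and Reg3g did not pass the filter.

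Genes of T helper 17 and group 3 innate lymphoid cells had 1 of 17 measured members higher and none lower, with a median of -0.04. Tox, a nuclear factor needed for the development of innate lymphoid and CD4 T cells, read 0.22, 0.51, 0.29 and 0.41, with a mean of 0.36 ± 0.13 (SD, n = 4; limma adjusted p = 0.0373). A further probe read 0.16, and the call was lost with the scanner software's ratio (adjusted p = 0.0653). With median centring Tox read 0.73, which is 0.40 relative to the median of all features there. Of 5 measured interleukin 17 receptor and signalling genes 1 was lower and none higher. Il17rc, a chain of the receptor for interleukin 17, read -0.29, -0.33, -0.61 and -0.65, with a mean of -0.47 ± 0.19 (SD, n = 4; limma adjusted p = 0.0347). A further probe read -0.32. With median centring Il17rc stood at 0.00, which is 0.32 below the median of all features there.

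In the aryl hydrocarbon receptor pathway 2 of 12 measured genes were lower and none higher, with a median of 0.05. Both are known targets of the receptor. Nqo1, a quinone reductase that other stress pathways also induce, read -0.30, -0.54, -0.54 and -0.57, with a mean of -0.49 ± 0.13 (SD, n = 4; limma adjusted p = 0.0254). Ahrr, the repressor that competes with the receptor for its partner, read -0.46, -0.29, -0.55 and -0.26, with a mean of -0.39 ± 0.14 (SD, n = 4; limma adjusted p = 0.0337). With the scanner software's ratio Nqo1 read -0.89 and Ahrr -0.67, and with median centring Ahrr read -0.20, each with the call kept. Relative to the median of all features under median centring, Ahrr stood at -0.52. The receptor binds DNA with its partner at a core of GCGTG. The start of Ahrr is printed because it is the list's gene that fell and holds this core, shown in capitals on either strand, with its sequence from RefSeq (GRCm38.p6, chr13:74292282-74292581, minus strand, 250 bases before to 50 after the start).

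Ahrr promoter: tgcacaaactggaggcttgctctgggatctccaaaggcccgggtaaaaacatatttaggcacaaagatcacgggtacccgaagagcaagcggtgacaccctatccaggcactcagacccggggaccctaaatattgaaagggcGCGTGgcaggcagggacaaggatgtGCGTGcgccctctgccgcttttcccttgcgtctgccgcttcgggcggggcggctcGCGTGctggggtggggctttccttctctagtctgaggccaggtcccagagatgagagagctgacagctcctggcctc

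It holds 3 matches, all in the same orientation. Of 32851 such windows 32.4% hold at least 1 match on either strand and 3.91% hold 3 or more. The windows of Nqo1 and of the 5 members in the table (Il22, Il22ra1, Il23r, Il12b and Il17a) hold none in these letters. A match is a description of the sequence and no evidence of binding in these nodes.

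Of 16 measured cytokines, receptors and lymphotoxin genes that act upstream of interleukin 22, 1 was lower and none higher in limma (3 higher and 4 lower at an unadjusted p under 0.05). This was Ltbr, the lymphotoxin beta receptor of stroma and myeloid cells, at -0.28, -0.17, -0.50 and -0.44, with a mean of -0.35 ± 0.15 (SD, n = 4; limma adjusted p = 0.0447). Its call was lost with the scanner software's ratio (limma adjusted p = 0.0589) and with median centring. There it read 0.15, which is -0.18 relative to the median of all features.

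**Figure D4:**
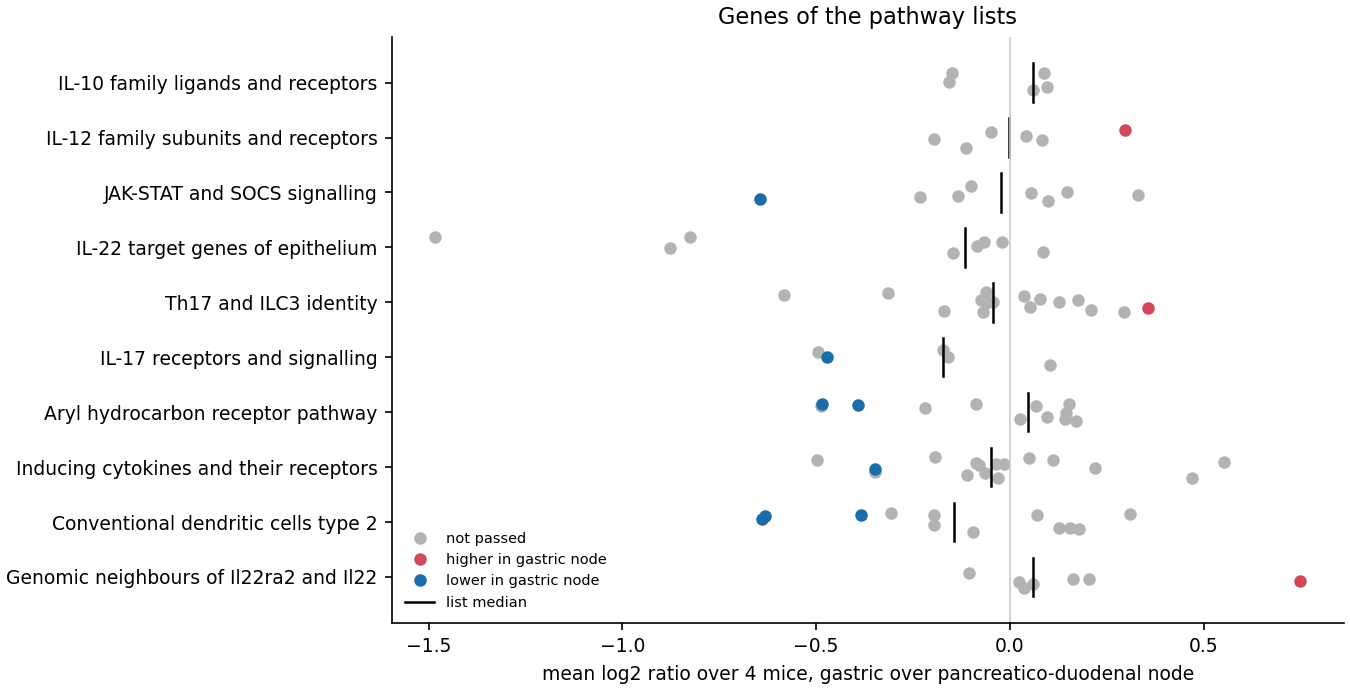
Mean log2 ratio over 4 mice (horizontal axis, gastric over pancreatico-duodenal node) of each measured gene in 10 pathway lists (rows); red and blue points passed the test as higher or lower, grey points did not, and black bars are list medians. Of the 94 genes 3 were higher and 8 were lower, and list medians lie between -0.17 and 0.06.

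Type 2 conventional dendritic cells, the subset reported to make interleukin 22 binding protein, were followed by 12 measured genes. Of these 3 were lower and none higher in the gastric node (6 lower and 2 higher at an unadjusted p under 0.05), with a median of -0.14. Flt3, the growth factor receptor of dendritic cells, read -0.64 ± 0.20 (adjusted p = 0.0257), the integrin gene Itgae, which encodes CD103, -0.63 ± 0.14 (adjusted p = 0.0223) and the integrin gene Itgax, which encodes CD11c, -0.38 ± 0.15 (adjusted p = 0.0378; limma, SD, n = 4). With median centring Flt3 read -0.27 and kept its call. That of Itgae was lost there (-0.10). That of Itgax was lost with the scanner software's ratio (limma adjusted p = 0.0551) and with median centring, where it read 0.15. Relative to the median of all features under median centring, Flt3 stood at -0.60, Itgae at -0.43 and Itgax at -0.17. These 3 genes are not particular to the type 2 subset. The other measured genes of the list did not pass and are named after their values were seen. Above 0 on average were the lectin genes Clec10a at 0.31 ± 0.33 and Cd209a at 0.07 ± 0.19, and the integrin gene Itgam at 0.16 ± 0.06. So were Notch2 at 0.18 ± 0.13 and the transcription factor gene Irf4 at 0.13 ± 0.19 (SD, n = 4). Below 0 on average were Ccr7 at -0.31 ± 0.21, the lectin gene Mgl2 at -0.20 ± 0.04, Sirpa at -0.20 ± 0.11 and Klf4 at -0.09 ± 0.32. Further probes read -0.02 and 0.11 for Notch2, 0.05 for Itgam, and -0.19 and -0.36 for Sirpa. Of 8 measured general dendritic cell markers, which include Flt3 and Itgax again, 4 were lower and none higher, and their summed normalized signal was 12773 to 14709 in gastric and 15942 to 19351 in pancreatico-duodenal nodes. Zbtb46 and Clec9a were matched to no probe and are not analysed here. Fscn1, an actin-bundling protein of mature dendritic cells, read -0.65 ± 0.30, and lost the call with the scanner software's ratio and with median centring. In the latter Fscn1 stood at -0.45 relative to the median of all features.

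Macrophage markers had 6 of 10 measured genes lower and none higher, with a summed normalized signal of 46011 to 74884 in gastric and 83506 to 118803 in pancreatico-duodenal nodes. At an unadjusted p under 0.05 the counts were 8 lower and 1 higher. The higher one, Timd4, read 0.42, 0.92, 0.19 and 0.08 and did not pass the test. Adgre1, a surface receptor gene of macrophages, read -1.36 ± 0.71, and a further probe -0.54. It lost the call with the scanner software's ratio (limma adjusted p = 0.0526). The scavenger receptor gene Cd163 read -1.26 ± 0.30 (SD, n = 4), and -2.19 with the scanner software's ratio. The adipocyte median was 1.72, -1.93, 0.36 and -1.67 in mice 1 to 4. T cell markers had 2 of 12 higher and none lower, Cd28 at 0.33 ± 0.15 and Cd3g at 0.32 ± 0.14, and lost both calls with the scanner software's ratio. None of 10 B cell markers passed in limma (1 higher and 0 lower at an unadjusted p under 0.05). The part of cell content in the Il22ra2 value was not tested.

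**Figure D5:**
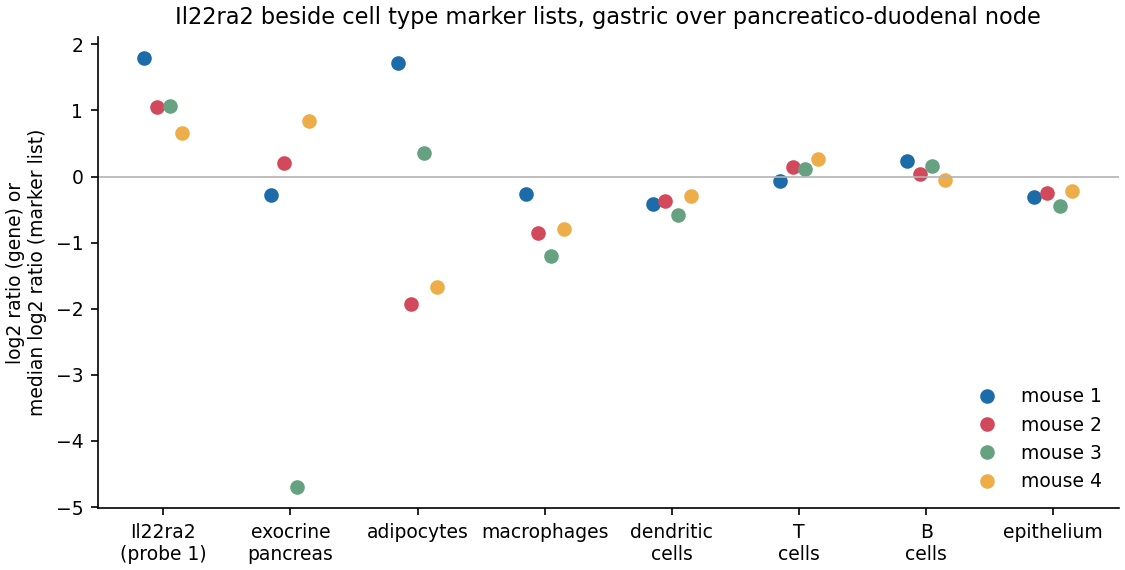
Log2 ratio of Il22ra2 (first column) beside the median log2 ratio of 7 marker lists, per mouse (vertical axis, gastric over pancreatico-duodenal node; the number of measured genes per list is 10 for exocrine pancreas, 7 for adipocytes, 10 for macrophages, 8 for dendritic cells, 12 for T cells, 10 for B cells and 5 for epithelium). Il22ra2, whose value chose the set, is above 0 in 4 of 4 mice. Dendritic cell, macrophage and epithelium medians are below 0 in 4 of 4 mice. The part of cell content in the Il22ra2 value was not tested.

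In the gene table Il22ra2 lies between Ifngr1, a chain of the interferon gamma receptor, and Il20ra, a chain of the interleukin 20 receptor. Neither neighbour passed the test. Ifngr1 read 0.15, 0.00, -0.35 and -0.22, with a mean of -0.11 ± 0.22 (SD, n = 4; limma adjusted p = 0.456). Median centring turned it to 0.57 and called it higher (limma adjusted p = 0.000549), which is 0.25 relative to the median of all features there. Il20ra was well above background on 3 of 4 gastric and 0 of 4 pancreatico-duodenal arrays and read 0.06 ± 0.19 (SD, n = 4; limma adjusted p = 0.630). With the scanner software's ratio it read 0.41, so a difference in this dim gene was not measurable here. Ifng, the interferon gamma gene near Il22, was the 1 of 7 measured neighbours that was higher, with none lower. It read 0.49, 1.14, 0.73 and 0.64, with a mean of 0.75 ± 0.28 (SD, n = 4; limma adjusted p = 0.0295).

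Among the genes whose 4 ratios lay closest to those of the brighter Il22ra2 probe, by root mean square difference over the 4 mice, were Fibin (0.42 log2 units), Luc7l2 (0.45), Rbm26 (0.54) and Klra7 (0.58). Fibin, a secreted protein gene, read 1.22, 1.01, 1.04 and 0.06, and Klra7, a natural killer cell receptor gene, read 1.08, 0.74, 0.23 and 0.82.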

How the data were processed

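Expression was measured in 2 lymph nodes of 4 mice on 4 two-colour Agilent arrays of 1 slide. Per the file headers, Agilent Feature Extraction 10.2.1.3 gave the deposited mean and background intensity of each spot and a background-subtracted, dye-normalized intensity. Its deposited log10 ratio is red over green. The log2 ratio in the authors' deposited table equalled the mean log2 ratio of the processed signals to within 5.11e-05. Its column medians are -0.15, -0.06, -0.03 and -0.03.

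From the mean and background intensities, normexp (offset 50) and loess within arrays were run in limma 3.58.1 (R 4.3.3). Control and outlier spots had weight 0. Spots of a probe were averaged, which gave 41174 probes, and a probe was kept if 1 channel stood well above background on 3 or more of the 4 arrays (27603). Accessions were matched to a RefSeq gene table (GRCm38.p6, names and neighbours only, since the arrays use mm9), which named 24844 probes. The brightest probe stood for a gene. Ratios were tested against 0 with lmFit and eBayes over 21320 features, Benjamini-Hochberg adjusted, threshold 0.05; each array pairs both nodes of a mouse. Summed marker signals are normalized channel signals after Aquantile. Promoter sequences came from RefSeq. The steps were tested on simulated intensities.

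Members, lists and tests were chosen with earlier results of these data known. List genes are named by a rule: up to 4 called per list, or the 2 brightest where none was, up to 2 called per marker list, the neighbours Ifngr1, Il20ra and Ifng, and the 5 nearest to Il22ra2, of which 1 is not reported here. The labels name 4 mice, so replicates are separate animals.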

Additional observations from a re-analysis of the deposited data

Results flagged for a closer look

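Of the list genes, 3 had 1 mouse far from the other 3 by Dixon's criterion for 4 values, among 45 sets of 4 ratios checked, of which chance alone marks about 1 in 20. Nqo1, the quinone reductase, read -0.30 in mouse 1, against -0.57 to -0.54 in the others. Itgax, the CD11c gene, read -0.60 in mouse 3, against -0.32 to -0.30. Cd163, the macrophage scavenger receptor gene, read -0.82 in mouse 1, against -1.46 to -1.37. No member was marked.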

How the results depend on the processing

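The mean log2 ratio of Il22ra2 ranged over 14 alternatives from 0.78 with the mean of both probes to 1.54 with median centring. Changing the filter, the variance model or the pairing cannot move this mean, which stayed at 1.14 there. The authors' series table repeats the scanner software's ratio, at 1.39 in both. These settings are thus no separate check of the value. The lower count over all features was 584 with the scanner software's ratio and with the authors' series table, where 1 pathway gene was higher. Median centring gave 12820 higher and 2066 lower features and 58 higher pathway genes. Scaling the arrays to a common spread gave 1071 higher features and 5 higher pathway genes. A trend with robust variance gave 0 higher and 0 lower features (6704 at an unadjusted p under 0.05), and 0 and 0 pathway genes. With both channels as separate samples, so without the pairing of nodes within a mouse, 335 features were higher and 568 lower, and 2 and 7 pathway genes. Leaving out 1 mouse gave 0 to 844 higher and 0 to 1323 lower features, and 0 to 4 and 0 to 11 pathway genes, the upper ends without mouse 1. With median centring the sign against 0 turned for Il10ra (0.44), Bcl3 (0.47), Il17rc (0.0017), Ltbr (0.15), Itgax (0.15) and Ifngr1 (0.57). Each was called under loess or median centring. The median of all features was 0.32 there. Relative to it Il17rc, Ltbr and Itgax stayed below, at -0.32, -0.18 and -0.17. Il10ra, Bcl3 and Ifngr1 lay above it, at 0.12, 0.15 and 0.25. The cause of the shift in the median was not tested. Dim members are limited by signal over background: Il22ra1 ranged from -0.39 to -0.11 and Il23r from -0.61 to -0.20 over alternatives.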

Other observations

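A gene of the interleukin 17 receptor list, singled out after its values were seen, varied between mice beside Il23r. Il17re, a receptor chain for interleukin 17C, read -0.65, 0.04, -0.64 and -0.74, with a mean of -0.50 ± 0.36 (SD, n = 4; limma adjusted p = 0.0802). Il23r itself read -0.15, -0.01, -0.49 and -0.44. Both were nearest to 0 in mouse 2, and Il17re did not pass the test. Il17f, next to Il17a in the gene table, was above background on 4 of 4 gastric and 3 of 4 pancreatico-duodenal arrays and read -0.07 ± 0.08 (SD, n = 4).

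Ahr and some of its target genes, also singled out afterwards, were highest in mouse 1 and lowest in mouse 3. Cyp1b1, a cytochrome P450 gene, read 0.37, -0.59, -1.06 and -0.66, and Tiparp, a poly-ADP-ribose polymerase gene that limits the receptor, read 0.72, -0.06, -0.28 and 0.00. Ahr read 0.26, -0.16, -0.53 and -0.28. Neither target passed the test (limma adjusted p = 0.203 and 0.715), and Ahrr and Nqo1 did not follow this order. Genes outside this pathway followed it too, so the order is not particular to Ahr and its targets. Among them were Jak2 at 0.43, -0.26, -0.49 and -0.22, and the dendritic cell marker Siglech at 0.70, -0.10, -0.55 and -0.31.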
